A study of Mus musculus with 12 samples.

Results

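Levels of 8 genes of endothelial cells, the lining cells of blood vessels, were followed in cultured bone marrow stroma from mice lacking 1 working copy of Crebbp or of Ep300 and from wild-type mice. The genes were Erg, Ldb2, Tie1, Robo4, Adgrl4, Emcn, Plvap and Egfl7, taken as every probe set whose platform annotation gave exactly 1 of these symbols. That made 12 probe sets of 3109 tested, and 8 of the 1974 genes that were named by a single symbol. Egfl7 had 3 probe sets, Adgrl4 and Ldb2 had 2 each, and the other 5 genes had 1 each. All 8 genes were present in the table, and each is described by its probe set of highest mean unless stated. The 8 were selected on their levels in these same arrays, which were known when the list was drawn up, so the differences between genotypes are given as a description, and no p-value is given for them. Counts of the 8 that passed a threshold are part of that description and test nothing.

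The groups were Crebbp+/- (4 arrays), Ep300+/- (4 arrays) and wild-type (4 arrays), each array a separate biological replicate per the labels. All mice were C57BL/6 and 3 to 4 months old, and every culture had grown for 2 weeks and received 1500 cGy of irradiation before RNA was taken. Crebbp and Ep300 encode related histone acetyltransferases that act as transcriptional coactivators, and the heterozygous state is carried by all cells of the mouse, so stroma of mixed cell types was compared. The comparisons ask what loss of 1 copy of either gene does to the marrow stroma. The labels do not give the sex of the mice, how many mice made a culture, or the share of endothelial cells in it, and no batch is named.

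Endothelial cells are a minority of marrow stroma, where they line arterioles and the leaky sinusoids through which blood cells leave the marrow, and they supply factors to blood stem cells. Their identity is held by ETS-family transcription factors, of which Erg is one, while receptors such as Tie1 and Robo4 regulate vessel stability. Surface proteins such as Emcn and Plvap mark venous and capillary walls. The defining endothelial markers Cdh5, Pecam1, Kdr, Cldn5, Esam and Icam2 were all measured (6 of 8, with Tek and Vwf not among the probe sets analysed here). The genes could thus be set beside other endothelial markers, which were read on the same arrays and are not independent of them. With bulk RNA, a larger number of endothelial cells and more of these transcripts per cell cannot be told apart.

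Values are log2 levels made with GCRMA, relative within a probe set, and so cannot be compared between genes. Array medians lay between 7.98 and 8.43. The targeted gene Crebbp was lower on all 4 Crebbp+/- arrays (7.67 to 7.88) than in Ep300+/- (8.48 to 8.73) and wild-type stroma (8.45 to 8.59), whereas Ep300 has no probe set analysed here. Crebbp+/- 4 stood apart from the other Crebbp+/- arrays, and wild-type 1 from the other wild-type arrays, for most of the 8 genes, and the log2 fold change against wild-type is given with and without them. Over all genes the median log2 fold change of Crebbp+/- against wild-type was 0.28, a shift included in every fold change of that comparison below.

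Promoter windows are shown because the genes moved together across arrays and are of a kind often bound by ETS factors. RefSeq sequences of build GRCm38.p6 covering 250 bases before to 50 bases after an annotated start were available for 6 of the 8 genes, with 10 windows in all. The windows of 5 genes are shown, 5′ to 3′ on the strand of the gene, with each match to the ETS-type motif CAGGAAG, on either strand, in capitals. They lie at chr16:95459299-95459598 on the minus strand (Erg, 1 of 3 annotated starts), chr9:37401722-37402021 on the plus strand (Robo4), chr3:137340828-137341127 on the plus strand (Emcn), chr2:26583615-26583914 on the plus strand (Egfl7, 1 of 3 starts) and chr4:118489800-118490099 on the minus strand (Tie1, which held no match).
Erg: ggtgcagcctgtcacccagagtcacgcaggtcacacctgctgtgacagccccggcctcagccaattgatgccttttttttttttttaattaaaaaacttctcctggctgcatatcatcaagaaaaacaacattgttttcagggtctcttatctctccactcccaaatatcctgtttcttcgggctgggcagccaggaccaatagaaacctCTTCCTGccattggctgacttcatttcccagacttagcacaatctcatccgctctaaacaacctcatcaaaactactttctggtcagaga
Robo4: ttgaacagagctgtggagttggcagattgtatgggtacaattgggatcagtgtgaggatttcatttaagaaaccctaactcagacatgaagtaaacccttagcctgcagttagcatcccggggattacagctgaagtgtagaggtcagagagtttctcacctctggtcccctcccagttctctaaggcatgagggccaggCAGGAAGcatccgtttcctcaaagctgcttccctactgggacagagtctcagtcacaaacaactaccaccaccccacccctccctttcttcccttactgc
Emcn: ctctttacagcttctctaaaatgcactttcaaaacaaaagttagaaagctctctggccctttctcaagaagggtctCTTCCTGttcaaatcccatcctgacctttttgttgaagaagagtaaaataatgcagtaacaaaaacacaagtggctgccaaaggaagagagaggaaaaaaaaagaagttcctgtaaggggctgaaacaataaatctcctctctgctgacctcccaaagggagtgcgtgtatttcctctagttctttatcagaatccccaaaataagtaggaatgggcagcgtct
Egfl7: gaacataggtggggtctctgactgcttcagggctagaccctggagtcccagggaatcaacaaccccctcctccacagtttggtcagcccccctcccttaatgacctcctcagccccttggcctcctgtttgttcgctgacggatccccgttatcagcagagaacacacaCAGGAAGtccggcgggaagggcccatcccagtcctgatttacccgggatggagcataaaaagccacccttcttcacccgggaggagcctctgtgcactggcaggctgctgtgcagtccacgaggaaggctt
Tie1: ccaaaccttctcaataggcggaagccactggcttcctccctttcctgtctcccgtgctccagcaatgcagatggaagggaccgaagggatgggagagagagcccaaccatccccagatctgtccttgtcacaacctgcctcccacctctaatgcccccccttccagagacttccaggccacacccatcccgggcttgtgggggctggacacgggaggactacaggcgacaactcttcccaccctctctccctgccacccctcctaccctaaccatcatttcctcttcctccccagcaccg
The matches began 40 bases before the start for Erg, 50 for Robo4, 174 for Emcn and 81 for Egfl7. Of the 10 windows, 5 held CAGGAAG, namely 1 of Erg, 1 of Robo4, 1 of Emcn and 2 of Egfl7, against 13.3% of all 32851 windows. The other form searched, CCGGAAG, was in 0 of 10 and in 8.86% of all. A search for GATAAG, bound by GATA factors, found 1 window (Erg) against 7.44% of all. The letters TATAAA were in 1 (another Erg start) against 13.6%. TGACGT, part of the cAMP response element, was in 0 of 10 windows against 7.51% of all, and TGANTCA (AP-1) in 0 of 10 against 7.81%. All motifs were searched on both strands, and no match of 1 motif overlapped another. Windows of 1 gene are not independent, and a match describes letters only.

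Taken by genotype mean, all 8 genes were highest in Crebbp+/- stroma. In 7 of them wild-type came next and Ep300+/- last, while for Erg the Ep300+/- mean was slightly above wild-type. The difference between Ep300+/- and wild-type ran from -0.62 to 0.077 with SEs of 0.26 to 0.90, and the arrays of the 2 genotypes overlapped for all but Plvap. Crebbp+/- 1, 2 and 3 held the top 3 places for every gene. The plot of levels by array shows this split.

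**Figure D1:**
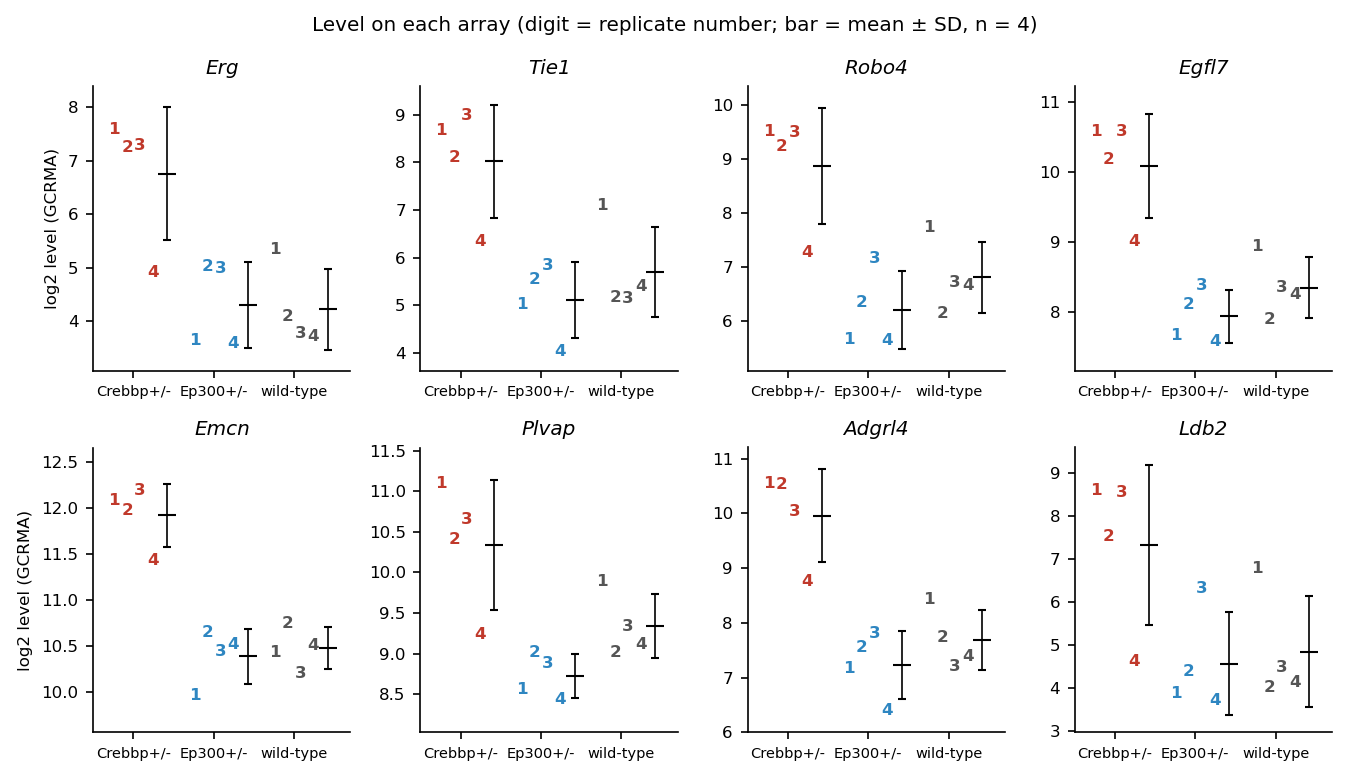
Log2 level of each of the 8 genes (y axis, GCRMA, own scale per gene) on each array, with the digit giving the replicate number and the bar the mean ± SD of 4 arrays, for Crebbp+/-, Ep300+/- and wild-type stroma. Crebbp+/- 1, 2 and 3 lie above all other arrays for every gene, and Crebbp+/- 4 lies above all wild-type arrays for Egfl7, Emcn and Adgrl4.

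Among the regulators, Erg is an ETS transcription factor required to keep endothelial identity and also used by blood stem cells. Erg stood at 7.58, 7.24, 7.28 and 4.91 on Crebbp+/- 1 to 4, at 3.63, 5.02, 4.98 and 3.58 on Ep300+/- 1 to 4 and at 5.33, 4.09, 3.77 and 3.71 on wild-type 1 to 4. Crebbp+/- 1 to 3 were far above every other array, and Crebbp+/- 4 lay below wild-type 1 and below Ep300+/- 2 and 3, so the groups overlapped. The log2 fold change was 2.53 (SE 0.60) against wild-type and 2.46 (SE 0.60) against Ep300+/-, and that of Ep300+/- against wild-type was 0.077. Wild-type arrays reached down to 3.71 in a table whose lowest value was 1.65, and low GCRMA values can hold mostly background, which limits the size given for Erg. Erg reached the log2 of 100, the level of the filter described below, on Crebbp+/- 1 to 3 alone. Without Crebbp+/- 4 and wild-type 1 the log2 fold change against wild-type was 3.52, and without Crebbp+/- 1 and 3 it was 1.85.

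Ldb2 is a cofactor that binds the LIM domains of LIM-homeodomain and LMO proteins and joins them into transcription complexes. Its probe set of higher mean read 8.59, 7.53, 8.55 and 4.62 in Crebbp+/-, 3.86, 4.37, 6.31 and 3.71 in Ep300+/- and 6.77, 4.00, 4.48 and 4.13 in wild-type stroma. Crebbp+/- 4 lay among the low arrays here, below wild-type 1 and Ep300+/- 3, and the SD within Crebbp+/- was 1.87. The log2 fold changes of 2.48 (SE 0.90) against wild-type and 2.76 (SE 0.90) against Ep300+/- were the least certain of the 8. The second Ldb2 probe set gave 7.32, 7.48, 8.03 and 2.67 in Crebbp+/-, 2.62, 2.56, 2.67 and 2.46 in Ep300+/- and 5.39, 2.49, 2.53 and 2.5 in wild-type stroma. On that probe set the 4 Ep300+/- arrays, wild-type 2 to 4 and Crebbp+/- 4 all lay between 2.46 and 2.67, near the bottom of the table, and 4 arrays stood clear of that level. Those 4 were Crebbp+/- 1 to 3 and wild-type 1. Its log2 fold changes were 3.15 (SE 1.01) against wild-type and 3.79 (SE 1.01) against Ep300+/-, and it correlated with the first probe set at r = 0.932 over the 12 arrays. Without Crebbp+/- 4 and wild-type 1 the log2 fold change of the first probe set against wild-type was 4.02, and without Crebbp+/- 1 and 3 it was 1.23.

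Tie1 is an endothelial receptor tyrosine kinase that modulates signalling by the angiopoietin receptor Tek. Tie1 levels were 8.67, 8.09, 8.98 and 6.34 in Crebbp+/-, 5.02, 5.53, 5.84 and 4.02 in Ep300+/- and 7.10, 5.16, 5.15 and 5.39 in wild-type stroma. Every Crebbp+/- array lay above every Ep300+/- array, while wild-type 1 passed Crebbp+/- 4. Tie1 had a log2 fold change of 2.32 (SE 0.62) against wild-type and of 2.92 (SE 0.62) against Ep300+/-, and the second of these was the highest of the 8. In Ep300+/- against wild-type it was -0.60, and -0.13 without wild-type 1. Against wild-type the Crebbp+/- value was 3.35 without Crebbp+/- 4 and wild-type 1, and 1.52 without Crebbp+/- 1 and 3.

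Robo4 is the roundabout-family receptor of endothelium and restrains vessel leakage. Robo4 read 9.52, 9.23, 9.50 and 7.28 in Crebbp+/-, 5.65, 6.34, 7.17 and 5.64 in Ep300+/- and 7.73, 6.15, 6.72 and 6.66 in wild-type stroma. As for Tie1, Crebbp+/- and Ep300+/- arrays did not overlap, and wild-type 1 lay above Crebbp+/- 4. The log2 fold changes were 2.07 (SE 0.54) against wild-type, 2.69 against Ep300+/- and -0.61 in Ep300+/- against wild-type (-0.31 without wild-type 1). Robo4 stood at 2.91 against wild-type when Crebbp+/- 4 and wild-type 1 were left out, and at 1.44 without Crebbp+/- 1 and 3.

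Adgrl4, also called Eltd1, is an adhesion G protein-coupled receptor of endothelial cells. Its levels were 10.54, 10.53, 10.03 and 8.75 in Crebbp+/-, 7.17, 7.55, 7.81 and 6.40 in Ep300+/- and 8.43, 7.74, 7.20 and 7.38 in wild-type stroma. All 4 Crebbp+/- arrays were above all 8 others, with Crebbp+/- 4 at 8.75 and wild-type 1 at 8.43 closest to each other. The log2 fold changes were 2.28 (SE 0.45) against wild-type and 2.73 against Ep300+/-. The first was 2.93 without Crebbp+/- 4 and wild-type 1, and 1.95 without Crebbp+/- 1 and 3. Its second probe set gave 2.16 and 2.5 in the same order and correlated with the first at r = 0.988 over the 12 arrays, but there wild-type 1 (8.80) lay above Crebbp+/- 4 (8.42).

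Of the surface and secreted products, Emcn encodes endomucin, a sialomucin of venous and capillary endothelium. Emcn stood at 12.08, 11.97, 12.19 and 11.43 in Crebbp+/-, 9.96, 10.65, 10.44 and 10.52 in Ep300+/- and 10.43, 10.75, 10.20 and 10.51 in wild-type stroma. Crebbp+/- 4 was 0.65 below the mean of the other Crebbp+/- arrays, the smallest such gap of the 8, and the groups did not overlap. The log2 fold changes were 1.44 (SE 0.26) against wild-type and 1.52 (SE 0.26) against Ep300+/-, with -0.084 in Ep300+/- against wild-type. Leaving out Crebbp+/- 4 and wild-type 1 gave 1.59 against wild-type, and leaving out Crebbp+/- 1 and 3 gave 1.22. Unlike the other 7, Emcn was not higher on wild-type 1 than on wild-type 2 to 4 (difference -0.06, against 0.73 to 2.57 for the others).

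Plvap encodes the protein of the diaphragms that span endothelial fenestrae and caveolae, and it marks sinusoids. Plvap had 11.09, 10.41, 10.65 and 9.23 in Crebbp+/-, 8.56, 9.01, 8.88 and 8.43 in Ep300+/- and 9.89, 9.02, 9.34 and 9.11 in wild-type stroma. Crebbp+/- 4 lay within the wild-type range, so Crebbp+/- and wild-type overlapped, but all Ep300+/- arrays lay below all arrays of both other genotypes. The margin to wild-type was very small, with Ep300+/- 2 at 9.01 and wild-type 2 at 9.02. The log2 fold change was 1.0 (SE 0.37) against wild-type, the smallest of the 8, 1.62 (SE 0.37) against Ep300+/-, and -0.62 (SE 0.37) in Ep300+/- against wild-type. Without Crebbp+/- 4 and wild-type 1 the value of Plvap against wild-type was 1.56, and without Crebbp+/- 1 and 3 it was 0.478.

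Egfl7 is a secreted matrix-bound protein made by endothelial cells that shapes vessel tubes and modulates Notch signalling. Egfl7 levels were 10.57, 10.17, 10.57 and 9.0 in Crebbp+/-, 7.67, 8.11, 8.38 and 7.58 in Ep300+/- and 8.93, 7.89, 8.35 and 8.25 in wild-type stroma. Crebbp+/- 4 (9.0) lay just above wild-type 1 (8.93), and no array of either other genotype reached the Crebbp+/- range. The log2 fold change was 1.72 (SE 0.37) against wild-type and 2.14 (SE 0.37) against Ep300+/-. Against wild-type it was 2.27 without Crebbp+/- 4 and wild-type 1, and 1.23 without Crebbp+/- 1 and 3. The other 2 probe sets gave 1.67 and 1.45 against wild-type, and the 3 correlated with each other at r from 0.981 to 0.985 over 12 arrays. On 1 of these probe sets wild-type 1 (8.08) lay above Crebbp+/- 4 (7.94).

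**Figure D2:**
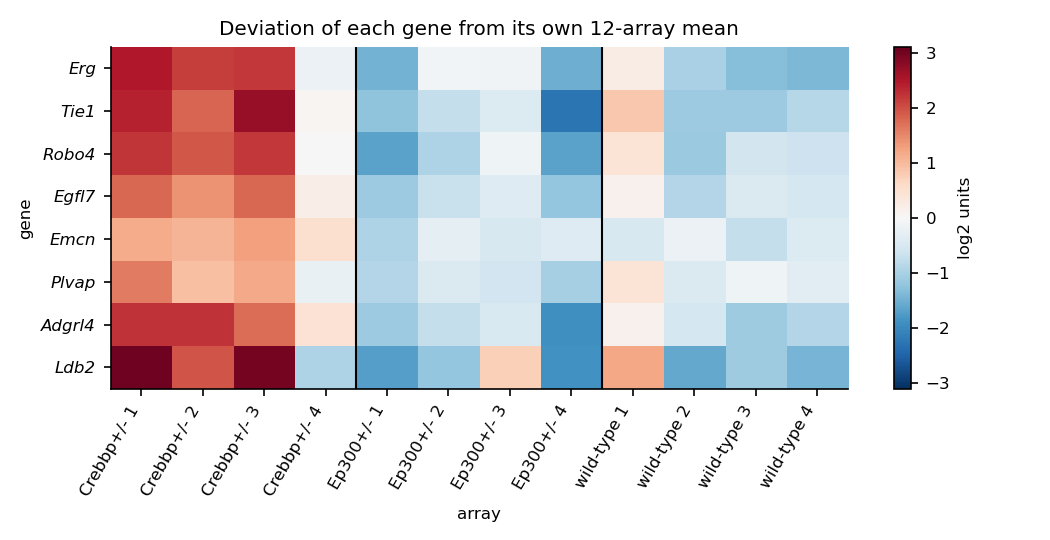
Deviation of each gene (rows) from its own mean over 12 arrays (columns), in log2 units, with red above and blue below the mean. Crebbp+/- 1 to 3 are red for all 8 genes (array means 2.11, 1.68 and 2.00), Crebbp+/- 4 is near 0 (mean -0.02), and Ep300+/- 1 and 4 are the lowest arrays (means -1.28 and -1.48).

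Across the list, the median log2 fold change of Crebbp+/- against wild-type was 2.17, beside 0.28 over all genes, and the 8 values ran from 1.0 (Plvap) to 2.53. In that comparison 6 of the 8 passed at a limma adjusted p under 0.05 (Erg, Tie1, Robo4, Egfl7, Emcn and Adgrl4), where 5.22% of all genes passed in the upward direction. Since the genes were chosen with this comparison known, nothing is read from that share. Once pairs of same-numbered arrays entered as a block, 8 of 8 passed, Plvap and Ldb2 included, where 19% of all genes were called higher. The labels do not say what same-numbered arrays share. Their pairing was inferred from these same arrays, so nothing is read from that count either. The groups did not overlap for 3 of the 8 (Egfl7, Emcn and Adgrl4), against 11% of all genes. The count of 6 changed with single arrays. It was 1, 1 and 0 without wild-type 2, 3 and 4. Without Crebbp+/- 1, 2 and 3 it was 0, 0 and 2. Calls over all 3109 probe sets fell too, from 192 to 30, 48 and 5 without those wild-type arrays. They were 9, 7 and 55 without those Crebbp+/- arrays. Without Crebbp+/- 4 and wild-type 1 together the count was 8, and 330 of all probe sets were called.

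Directly against Ep300+/-, the median was 2.57, beside 0.08 over all genes, and 7 of the 8 passed (all but Ldb2, whose second probe set did pass), where 5.22% of all genes passed upward. With the replicate block 8 passed, where 21.4% of all genes were called higher. The genes were chosen with this comparison known too, so nothing is read from either count. Groups did not overlap for 6 of the 8 (all but Erg and Ldb2), against 10.2% of all genes. Both comparisons share the Crebbp+/- arrays. Leaving out Crebbp+/- 1 gave 0 and Crebbp+/- 2 gave 3, while leaving out Ep300+/- 1 gave 0 and Ep300+/- 4 gave 3. Calls over all probe sets, 199 with every array, were 9 and 38 without those Crebbp+/- arrays. They were 2 and 59 without those Ep300+/- arrays. For each of the 8 genes Crebbp+/- lay above the same-numbered wild-type array in all 4 pairs, by 0.12 (Plvap, pair 4) to 4.07 (Ldb2, pair 3). The same held against Ep300+/-, by 0.79 to 4.73. These are 4 pairs of arrays, not separate cases per gene, since the genes varied together, and the share over all genes was not counted. The labels do not give these pairs. Same-numbered Crebbp+/- and wild-type arrays deviated together over all probe sets. For the probe sets of the 8 genes they did so in pairs 1 and 4, but not in pairs 2 (0.346 and -0.303) and 3 (0.584 and -0.295).

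In Ep300+/- against wild-type none of the 8 passed by limma, 0 of 8 had an unadjusted p under 0.05 (4.31% of all genes did), and 0% of all genes passed. The log2 fold changes ran from -0.62 to 0.077 with a median of -0.43, beside 0.036 over all genes, and 7 of 8 were negative. Plvap was the 1 gene whose groups did not overlap, against 2.38% of all genes in the downward direction, and its closest arrays stood at 9.01 and 9.02. Without wild-type 1 the median was -0.17. This comparison shares its wild-type arrays with the first.

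**Figure D3:**
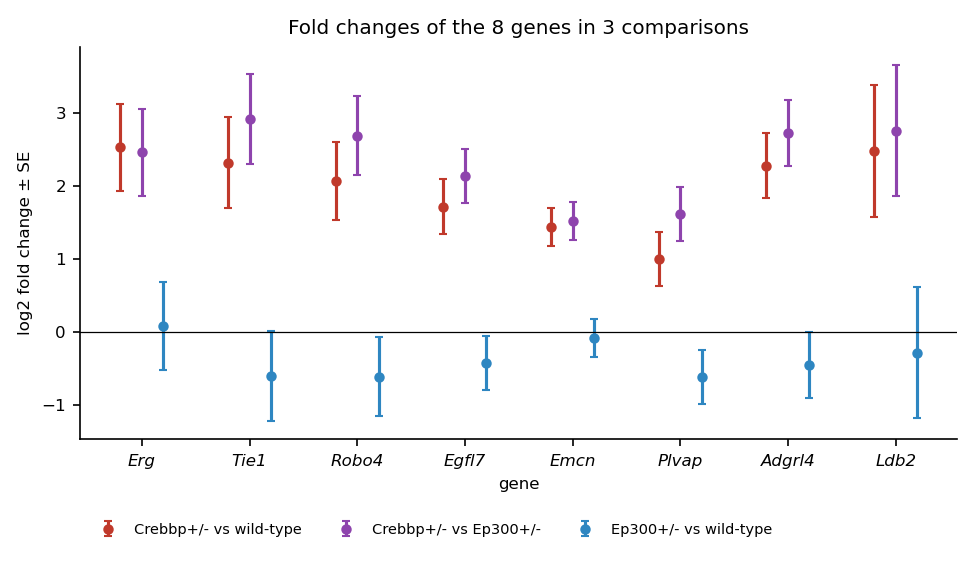
Log2 fold change ± SE from limma (y axis) of the 8 genes (x axis) for Crebbp+/- against wild-type (red), Crebbp+/- against Ep300+/- (purple) and Ep300+/- against wild-type (blue). Values of the first 2 comparisons lie between 1.0 and 2.92, and those of the third between -0.62 and 0.077.

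The 8 genes varied together between arrays of 1 genotype as well. With the genotype means taken out, the 21 pairs of genes other than Emcn had correlations from 0.83 to 0.98 over the 12 arrays, while the 7 pairs with Emcn had 0.46 to 0.65. Over the 9 arrays other than Crebbp+/- 1 to 3, the pairs without Emcn had 0.58 to 0.96 and those with Emcn -0.01 to 0.60. These are descriptions over arrays that share labelling and normalization. Emcn was the gene least tied to the rest, as on wild-type 1.

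By likeness to the mean profile of the 8 (each gene centred and scaled), the closest of the other 1966 genes over the 12 arrays were Pecam1, Esam and Cdh5 (r = 0.994 each), adhesion proteins of endothelial junctions. Then came the transcription factor Bcl6b (0.987), Gimap6 (0.986), Plekhg1 (0.985), the adhesion receptor Adgrf5 (0.980), the peptide ligand Apln (0.979), Trp53i11 (0.979) and the scavenger receptor Stab2 (0.978). The median gene had r = 0.26, and 78 genes exceeded 0.9. Over the 9 arrays other than Crebbp+/- 1 to 3 these 10 genes had r from 0.866 (Trp53i11) to 0.966 (Pecam1). With genotype means taken out, the 10 closest were Cdh5 (0.988), Pecam1, Esam, Plekhg1, Cyp4b1, Flt4, Gimap6, Bcl6b, Ptprb and Stab2 (0.939). Ptprb was the exception over the 9 arrays, with r = 0.629.

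Other genes of the same biology were taken from 8 lists holding 104 genes beside the 8, of which 49 were measured. In Crebbp+/- against wild-type stroma 11 rose, 2 fell and 36 did not pass (limma adjusted p under 0.05), with a median log2 fold change of 1.03, where 5.22% of all genes rose and 1.42% fell. At an unadjusted p under 0.05 there were 31 of the 49, against 28.5% of all genes. With the replicate block 26 rose and 3 fell, where 19% and 9.47% of all genes did. The total of 13 was 1, 1 and 0 without wild-type 2, 3 and 4. It was 0, 0, 2 and 30 without Crebbp+/- 1, 2, 3 and 4, and 0 with Eif2s3y as a covariate. Calls over all probe sets moved too, from 192 to 5 without wild-type 4, 383 without Crebbp+/- 4 and 0 with the covariate. Against Ep300+/- 15 rose and 1 fell, where 5.22% and 1.87% of all genes did, and with the replicate block 31 rose and 2 fell, where 21.4% and 6.13% did. In that comparison the total of 16 was 0, 4, 7 and 29 without Crebbp+/- 1 to 4 and 0, 8, 25 and 5 without Ep300+/- 1 to 4. Calls over all probe sets were 9, 38, 132 and 374 without those Crebbp+/- arrays. Without those Ep300+/- arrays they were 2, 121, 322 and 59, beside 199 with every array. In Ep300+/- against wild-type 0 of 49 passed by limma, and 2 had an unadjusted p under 0.05.

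**Figure D4:**
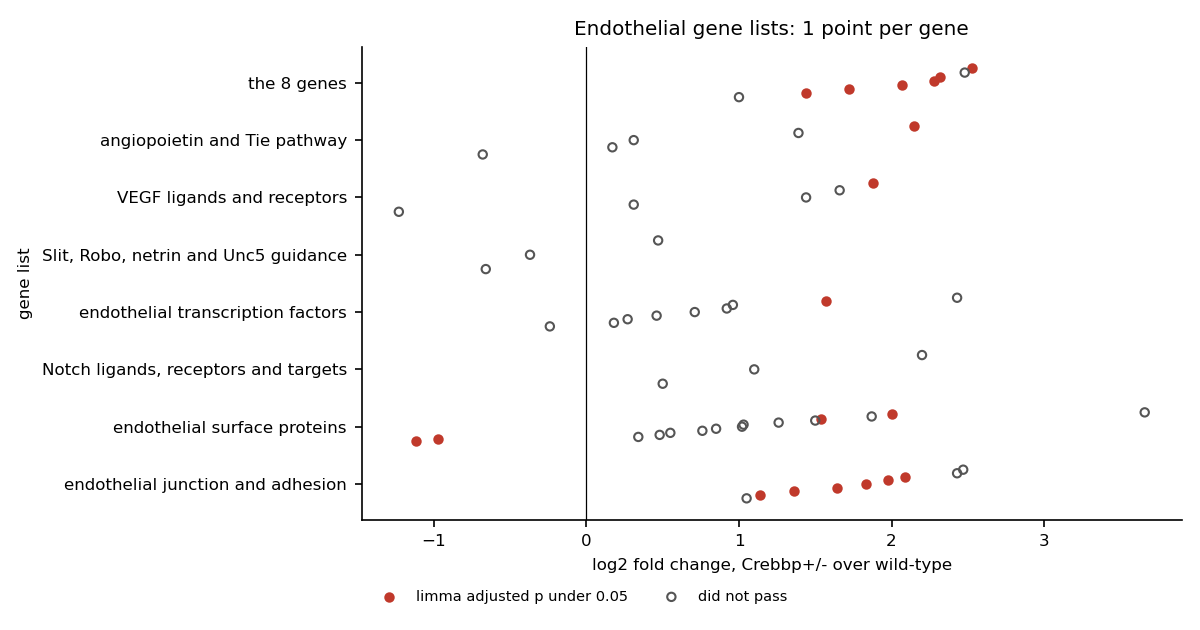
Log2 fold change of Crebbp+/- over wild-type (x axis) for each measured gene of the 8 described and of 7 endothelial lists (rows), filled where the limma adjusted p was under 0.05. Junction and adhesion genes all lie above 0, from 1.05 to 2.47, and Stab1 (-1.12) and Cd36 (-0.97) are the filled points below 0.

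In the angiopoietin and Tie list, ligands and partners of Tie1, 1 of 5 measured genes rose. This was Ptprb, a phosphatase that opposes Tek and VEGF receptor signalling, with levels of 9.09 ± 0.82 in Crebbp+/- and 6.94 ± 0.42 in wild-type stroma (mean ± SD, n = 4, log2 fold change 2.15, limma adjusted p = 0.0129). The ligands Angpt2 (1.39, limma adjusted p = 0.0933), Angpt4 (-0.68) and Angpt1 (0.31) did not pass. Of 5 VEGF list genes 1 rose: Pgf, a ligand of Flt1, by 1.88 (limma adjusted p = 0.0184), with the receptors Kdr at 1.66 (limma adjusted p = 0.0525) and Flt4 at 1.44 (0.0746) and the ligand Vegfd at -1.23 (0.113). None of the 3 measured guidance genes, from the family of ligands and receptors that holds Robo4, passed by limma in any comparison, and 0 had an unadjusted p under 0.05 in Crebbp+/- against either other genotype. Slit3, a ligand of Robo receptors, stood at -1.02 in Ep300+/- against wild-type (limma unadjusted p = 0.014, adjusted p = 0.889). In Crebbp+/- against wild-type the values were Unc5b (-0.66), a binding partner of Robo4, Ntn4 (0.47) and Slit3 (-0.37).

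Of 9 endothelial transcription factors 1 rose, Bcl6b, by 1.57 (limma adjusted p = 0.0260). Of other ETS-family genes, Ets1 stood at 0.92 (limma adjusted p = 0.0921), Ets2 at 0.96 and Fli1 at 0.71, and outside that family Sox18 stood at 2.43 (limma adjusted p = 0.0789). None of the 9 LIM partners of Ldb2 on the list was among the genes measured. Of 3 Notch genes, which Egfl7 can modulate, 0 passed by limma (Nrarp 2.20, limma adjusted p = 0.0748, Notch4 1.10 and Jag1 0.50), and 2 had an unadjusted p under 0.05.

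Among 15 endothelial surface proteins 2 rose and 2 fell. Mmrn2, an endothelial matrix glycoprotein, rose by 2.00 (limma adjusted p = 0.0184) and the adhesion receptor Selp by 1.54 (limma adjusted p = 0.0251). Stab1, a scavenger receptor of sinusoids that macrophages also make, fell by 1.12 (limma adjusted p = 0.0214), and the fatty acid receptor Cd36, which adipocytes and macrophages also make, fell by 0.97 (limma adjusted p = 0.0293). Stab2, the close relative of Stab1, stood at 1.87 (limma adjusted p = 0.0644). The junction and adhesion list had the most calls, with 6 of 9 measured genes higher, where 5.22% of all genes were. Among them were F11r (1.36), Pecam1 (1.98), Cdh5 (2.09) and Esam (1.83), with limma adjusted p from 0.0184 to 0.0203. All 4 had groups that did not overlap, against 11% of all genes. Mcam (1.64) and Tjp1 (1.14) also rose. Icam2 (2.43, limma adjusted p = 0.0509), Cldn5 (2.47, 0.0746) and Icam1 (1.05, 0.475) did not pass.

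Markers of other cells are given as the mean log2 level of each list on an array, which compares arrays within a list only. The 6 defining endothelial markers ran from 7.45 to 9.64 in Crebbp+/-, 5.88 to 7.01 in Ep300+/- and 6.54 to 7.96 in wild-type stroma, and 3 of the 6 rose in Crebbp+/- against wild-type. For pericytes and smooth muscle, the wall cells of vessels, 5 of 12 markers were measured and 2 rose. Their mean ran from 8.82 to 9.36 in Crebbp+/-, 7.37 to 8.27 in Ep300+/- and 7.5 to 8.42 in wild-type stroma. The rising genes were Rgs4 (1.72) and Rgs5 (2.57), with limma adjusted p-values of 0.0184 and 0.0267.

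The reticular stroma list (8 of 10 measured, 0 called by limma, 1 with an unadjusted p under 0.05) had means of 9.73 to 10.86 in Crebbp+/-, 9.03 to 10.39 in Ep300+/- and 9.71 to 10.83 in wild-type stroma. Macrophage markers (3 of 12 measured, Cd163 called at 1.18) ran from 11.89 to 12.92 in Crebbp+/-, 11.87 to 12.84 in Ep300+/- and 11.48 to 11.60 in wild-type stroma. Megakaryocyte and stem cell markers matter here because those cells also use Erg, and 3 of 10 were measured. Their mean ran from 8.42 to 9.87 in Crebbp+/-, 7.53 to 8.77 in Ep300+/- and 7.81 to 9.22 in wild-type stroma. Of these Myct1, which endothelial cells also make, rose by 1.93 (limma adjusted p = 0.0129), while Kit (1.07) and Pf4 (0.32) did not pass. Adipocyte markers (6 of 8, 0 called by limma, 0 with an unadjusted p under 0.05) ran from 9.34 to 10.97 in Crebbp+/-, 9.79 to 11.09 in Ep300+/- and 9.89 to 11.41 in wild-type stroma. Osteoblast markers (3 of 8, Ibsp called at -1.75) ran from 8.24 to 8.87 in Crebbp+/-, 8.84 to 9.89 in Ep300+/- and 9.46 to 9.98 in wild-type stroma. Of B lymphoid markers 1 of 8 was measured, Igkv8-30, which ran from 5.34 to 8.36 in Crebbp+/-, 3.58 to 4.88 in Ep300+/- and 4.01 to 4.60 in wild-type stroma. Igkv8-30 too reached the filter level on Crebbp+/- arrays alone. No T and NK lymphoid, granulocyte or erythroid marker was among the genes measured. The part of these cells in the levels of the 8 genes was not tested.

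Sex-linked transcripts also differed between the Crebbp+/- arrays. The Y-linked Eif2s3y stood at 2.73, 8.41, 2.69 and 9.22 on Crebbp+/- 1 to 4, against 8.49 to 10.04 in Ep300+/- and 8.77 to 10.84 in wild-type stroma. Xist, the transcript of the inactive X chromosome, stood at 12.19, 11.99, 12.21 and 10.35 on Crebbp+/- 1 to 4 by its probe set of higher mean, against 10.56 to 11.72 in Ep300+/- and 9.63 to 10.95 in wild-type stroma. A second Xist probe set read 9.46, 10.92, 8.75 and 6.47 on Crebbp+/- 1 to 4, against 8.35 to 10.26 in Ep300+/- and 6.84 to 9.30 in wild-type stroma. On that probe set Crebbp+/- 1 and 3 lay within the range of Ep300+/-. By the first probe set the 3 Crebbp+/- arrays of highest Xist were those of highest endothelial levels. Crebbp+/- 2, high in the 8 genes, had an Eif2s3y level (8.41) near that of Ep300+/- 4 (8.49). Ep300+/- 4 had an Xist level of 11.72 on the first probe set and the lowest level in 7 of the 8 genes. With Eif2s3y as a covariate the median log2 fold change of the 8 was 1.34 against wild-type and 1.76 against Ep300+/-. In that fit 0 of 8 passed in either comparison, as did 0 of all probe sets tested. Without Crebbp+/- 1 and 3 the medians were 1.34 and 1.71, with 0 passing, where 4 and 2 of all probe sets were called. Eif2s3y was low on Crebbp+/- 1 and 3 alone, so sex and genotype cannot be told apart for those arrays. The part of sex in the levels of the 8 genes was not tested.

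**Figure D5:**
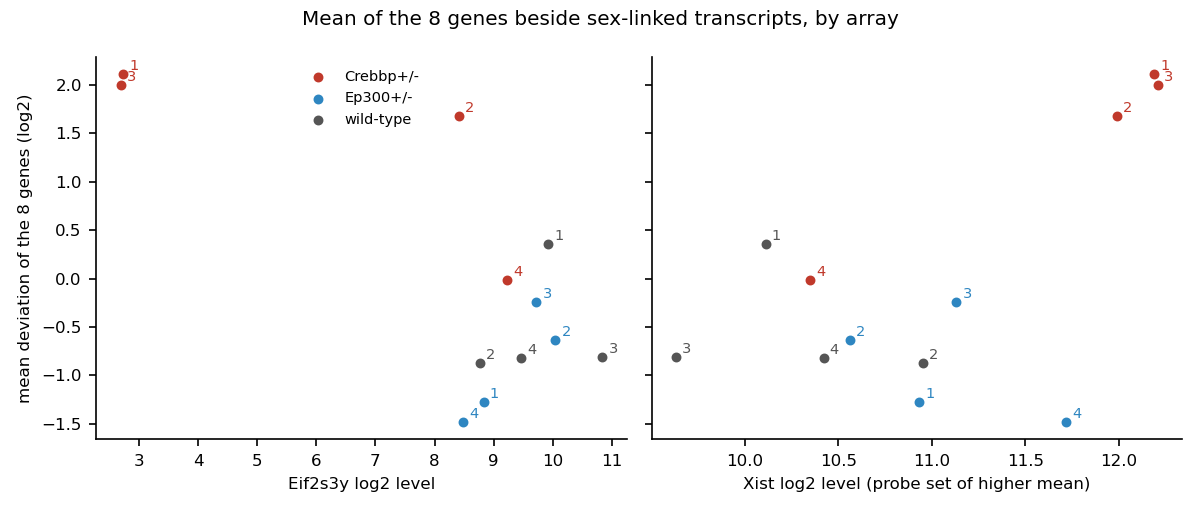
Mean deviation of the 8 genes from their own 12-array means (y axis, log2) against the log2 level of Eif2s3y (left) and of Xist (right) on each array, with the digit giving the replicate number. Crebbp+/- 1 and 3 lie at Eif2s3y levels of 2.73 and 2.69, and Crebbp+/- 2 at 8.41 with a mean deviation of 1.68.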

How the data were processed

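RNA of 12 stroma cultures was hybridized to Affymetrix arrays. The values deposited by the authors are on a log2 scale, and the submitters' processing notes name GCRMA, a method that models nonspecific binding by probe sequence before quantile normalization and summary. The sources used here do not give its version. Of 3127 probe sets, 18 controls were left out. Every probe set tested varied by an interquartile range of 0.5001 or more and reached the log2 of 100 on 3 arrays or more, a filter read from the values, so shares refer to variable probe sets. Erg and the Ldb2 probe set of lower mean reached that level on Crebbp+/- 1 to 3 alone. The same held for Kdr, Icam2, Nrarp and Myct1, and for Igkv8-30 on Crebbp+/- 2 to 4. These passed the filter only through Crebbp+/- arrays, so their higher levels there are no separate result. Of those tested, 2486 had 1 symbol, 176 several and 447 none. The platform annotation named genes, and all 8 genes matched GRCm38.p6 by gene ID with unchanged symbols.

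No further normalization was applied. Fold changes and SEs come from limma 3.58.1 in R 4.3.3 (lmFit, eBayes, 1 fit of 3 genotype means over 12 arrays, two-sided, Benjamini-Hochberg over 3109 probe sets, called under 0.05). With 4 arrays a genotype, their number limits the precision. On simulated data over 3109 probe sets for Crebbp+/- against wild-type, 26% of 100 planted log2 changes of 1 and 80% of 100 of 2 were called, with 7 false calls among 113. The simulated noise was independent between probe sets and of equal spread in every genotype. Real probe sets varied together over arrays, so these shares need not hold for the real data. The genes, lists, motifs and tests were chosen with earlier results of these data known. Named genes were the 8, up to 4 of smallest p in Crebbp+/- against wild-type from each list, the 10 most alike by each of 2 measures, Crebbp, Eif2s3y and Xist. Others in the text were named after their values were seen.

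Same-numbered arrays of Crebbp+/- and wild-type correlated in their deviations with r from 0.448 to 0.603, and those of Crebbp+/- and Ep300+/- with 0.294 to 0.513, so the numbers were taken to pair them. For Ep300+/- and wild-type the values were 0.534, 0.345, 0.0593 and 0.683 for replicates 1 to 4, so 3 of 4 pairs correlated and the rule that every r exceed 0.1 was missed by replicate 3 alone. The block was still fitted over all 3 genotypes. Arrays of different number were not compared, and the labels do not say what a shared number means. Alternatives were median centring, quantile normalization, trend and robust eBayes, leaving out low probe sets, 2 genotypes alone, the replicate block, an Eif2s3y covariate, averaging probe sets of 1 gene, each array left out, and 2 added after seeing the data.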

Additional observations from a re-analysis of the deposited data

Results flagged for a closer look

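In 36 groups of 4 arrays (12 probe sets in 3 genotypes), 6 held 1 array far from the other 3, where chance gives about 1 in 20 for a single group. The probe sets varied together over the same arrays, so the 36 groups are not independent and nothing is read from the share. In 4 of them it was Crebbp+/- 4, on the low side: Erg at 4.91 (next array 7.24), Robo4 at 7.28 (next 9.23), the Egfl7 probe set of lowest mean at 7.94 (next 9.24) and the Ldb2 probe set of lower mean at 2.67 (next 7.32). In the other 2 it was wild-type 1, on the high side: Tie1 at 7.10 (next 5.39) and the same Ldb2 probe set at 5.39 (next 2.53). No Ep300+/- array was apart in this way.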

How the results depend on the processing

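For Crebbp+/- against wild-type the median log2 fold change of the 8 genes (2.17) stayed between 1.93 and 2.64 without any 1 array. It was 1.34 with the Eif2s3y covariate, 1.34 without Crebbp+/- 1 and 3, and 2.92 without Crebbp+/- 4 and wild-type 1. Against Ep300+/- it was 2.26 to 3.1 without any 1 array (2.57 over all), then 1.76 with the covariate and 1.71 without Crebbp+/- 1 and 3. The number of the 8 called was 0 to 8 without 1 array in both comparisons, 0 with the covariate and 0 without Crebbp+/- 1 and 3. Over all probe sets 0 were called with the covariate in either comparison, and 4 and 2 without Crebbp+/- 1 and 3. The filter on low values kept 4 of the 8, of which 3 and 4 were called. Pathway list calls (13 and 16) ran from 0 to 30 and from 0 to 29 without 1 array. They were 8 and 8 with the low-value filter, 29 and 33 with the replicate block, 0 and 0 with the covariate, 29 and 29 without Crebbp+/- 4 and wild-type 1, and 0 and 0 without Crebbp+/- 1 and 3. Against Ep300+/- a fit of 2 genotypes alone gave 6. The filter tested fewer genes. With arrays left out the count depended on which array was removed, and there and for the covariate the cause was not tested. Beyond Plvap and Ldb2 the replicate block changed no call of the 8. In Ep300+/- against wild-type the count stayed at 0 for the 8 genes and for the lists in every alternative, and the median ran from -0.66 to -0.17 without 1 array. Signs turned there for 3 genes near 0: Emcn ran from -0.17 to 0.059, Erg from -0.16 to 0.45 (-0.011 with the covariate) and Ldb2 from -0.87 to 0.36 without 1 array (0.36 without Crebbp+/- 4 and wild-type 1). Quantile normalization and median centring turned no sign of the 8 genes in the first 2 comparisons. Low GCRMA values limit the size of the Erg and Ldb2 differences.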

Other observations

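Lymphatic endothelial markers split by gene. Of 6 on that list 3 were measured and 0 were called by limma in any comparison, although each had an unadjusted p under 0.05 in Crebbp+/- against wild-type. Flt4, the receptor for lymphatic growth factors, averaged 8.57 in Crebbp+/- and 7.13 in wild-type stroma, and Lyve1, a hyaluronan receptor that sinusoids and some macrophages also carry, averaged 9.80 in Crebbp+/- and 8.30 in wild-type stroma. Pdpn, the podoplanin gene, which reticular fibroblasts also express, averaged 7.71 in Crebbp+/- and 8.85 in wild-type stroma. The 1 cell cycle gene measured, Mki67, ran from 5.82 to 11.80 in Crebbp+/-, 8.02 to 12.03 in Ep300+/- and 7.47 to 7.95 in wild-type stroma, and its highest levels were on Crebbp+/- 3 and Ep300+/- 3.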
